A study of Homo sapiens with 8 samples.

Results

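The DNA replication machinery is the set of proteins that marks origins, unwinds DNA, copies both strands and supplies nucleotides for the new DNA. It was represented here by 54 genes, grouped by their known roles into 14 complexes or steps. The list was chosen with earlier results of these data known. All 54 were among the 12939 genes of the deposited values. Before S phase, the origin recognition complex (ORC) loads the MCM2-7 helicase onto origins with CDC6 and CDT1, and geminin blocks CDT1 afterwards. The kinase of CDC7 and DBF4 then starts the helicase, which moves with CDC45 and GINS, and DNA is copied by polymerases alpha, delta and epsilon with the PCNA clamp. Many of these genes are transcribed at the G1 to S transition by E2F factors, so their RNA is widely used as a sign of cycling cells.

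The libraries came from MDA-MB-231, a mesenchymal triple-negative breast cancer cell line, in which GFP driven by the Oct4a regulatory region was used to pick cancer stem cells (CSCs) as the brightest cells. The cells of all 3 groups were stable transfectants with this reporter and with a pRFP-C-RS vector that carried scramble shRNA (3 libraries), CDH2 shRNA (3 libraries) or Cx43 shRNA (2 libraries). CDH2 is N-cadherin, a cell adhesion protein, and Cx43 is the gap junction protein connexin 43. For CDH2 knockdown the paper chose a named clone as the most efficient among several. Whether this means a clone of cells or an shRNA construct is not clear from the paper. Whether the Cx43 and scramble lines are single clones is not given in the sources used here. Cells high in GFP and RFP were sorted and rested overnight, total RNA was depleted of ribosomal RNA, and the comparison asks which transcripts differ from control CSCs after either knockdown.

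The deposited values are log2(CPM + 1), where CPM scales the reads of a gene to a fixed library total, and they hold no read counts, so depth is unknown and the number of libraries sets the precision. Nothing in the labels says that replicates were separate cultures. The p-values measure only the spread between these libraries that was left after the authors removed a batch effect. VIM, CD44, EGFR, AXL and CAV1, which mark mesenchymal MDA-MB-231 cells, were listed in each library, and ESR1, PGR and CDH1 were not among the genes listed. ERBB2 and EPCAM, taken as low in this line, were listed at 5.16 to 5.52 and 2.21 to 2.75 log2(CPM + 1). Of 5 stromal markers, COL3A1, DCN and LUM were not listed, whereas COL1A1 lay between 2.50 and 4.33 and PDGFRB between 4.70 and 5.73 over the 8 libraries. Their means moved with the groups, PDGFRB from 5.58 in scramble to 4.95 with CDH2 shRNA and 4.86 with Cx43 shRNA, and COL1A1 from 3.81 to 3.97 and 2.89, and the part of this in the results was not tested. None of 4 blood cell markers was listed. Neither targeted gene (CDH2, or GJA1 for Cx43) was analysed here, so the extent of the knockdowns could not be read from these values. Transcripts of the mitochondrial genome (15 genes) took 0.600% to 1.02% of the summed CPM in scramble libraries, 1.17% to 2.04% in CDH2 knockdown and 1.25% to 2.37% in Cx43 knockdown. The part of these higher shares in the results below was not tested.

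To show where E2F words lie near these genes, the 160 bases before the RefSeq start are printed for 7 members on GRCh38.p14, 5 that rose in CDH2 knockdown (POLA1, CDC7, POLE, RFC3 and RRM2) and 2 that did not pass the test (MCM6 and PCNA). They read 5′ to 3′ along the gene, from chrX:24693758-24693917 (plus strand) for POLA1, chr1:91500952-91501111 (plus) for CDC7, chr12:132687343-132687502 (minus) for POLE, chr13:33817989-33818148 (plus) for RFC3, chr2:10122579-10122738 (plus) for RRM2, chr2:135876444-135876603 (minus) for MCM6 and chr20:5126623-5126782 (minus) for PCNA. Capitals mark the 4 E2F words TTTCCCGC, TTTCGCGC, TTTGCCGC and TTTGGCGC, and CCAAT, the box bound by NF-Y, each on either strand. CDC7, RRM2 and PCNA have another RefSeq start. For these the start printed was picked for its marked words, E2F words first. The window of the other CDC7 start held no E2F word and no CCAAT, and that of PCNA held no E2F word.
POLA1: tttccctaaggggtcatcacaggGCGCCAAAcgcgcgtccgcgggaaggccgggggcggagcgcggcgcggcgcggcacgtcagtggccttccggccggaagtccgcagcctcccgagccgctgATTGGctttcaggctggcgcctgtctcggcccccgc
CDC7: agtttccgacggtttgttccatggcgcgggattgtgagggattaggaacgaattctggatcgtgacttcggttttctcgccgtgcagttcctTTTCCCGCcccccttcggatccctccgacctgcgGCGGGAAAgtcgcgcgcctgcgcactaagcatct
POLE: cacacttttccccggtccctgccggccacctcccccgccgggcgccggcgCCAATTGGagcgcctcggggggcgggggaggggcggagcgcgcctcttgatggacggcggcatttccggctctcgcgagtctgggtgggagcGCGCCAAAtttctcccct
RFC3: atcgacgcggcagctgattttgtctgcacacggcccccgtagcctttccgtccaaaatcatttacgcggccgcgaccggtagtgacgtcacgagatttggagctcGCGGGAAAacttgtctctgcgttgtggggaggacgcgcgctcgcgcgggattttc
RRM2: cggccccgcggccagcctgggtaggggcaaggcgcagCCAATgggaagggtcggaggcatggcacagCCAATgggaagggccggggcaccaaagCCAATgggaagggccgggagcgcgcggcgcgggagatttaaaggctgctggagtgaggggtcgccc
MCM6: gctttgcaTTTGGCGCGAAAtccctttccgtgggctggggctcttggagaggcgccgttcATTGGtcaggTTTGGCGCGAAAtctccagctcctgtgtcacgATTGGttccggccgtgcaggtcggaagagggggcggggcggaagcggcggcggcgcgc
PCNA: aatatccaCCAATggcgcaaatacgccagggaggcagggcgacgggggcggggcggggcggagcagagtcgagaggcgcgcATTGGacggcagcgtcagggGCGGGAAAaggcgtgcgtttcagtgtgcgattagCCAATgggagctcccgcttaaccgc

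POLE joins a CCAAT box to its own reverse complement and has an E2F word close to the start, whereas RRM2 has 3 CCAAT boxes and no E2F word. In MCM6, the E2F words stand as overlapping pairs on opposite strands. RefSeq windows of 250 bases before to 50 after a start were at hand for 48 of the 54 members, as 62 windows. An E2F word was present in 24 of the 62 windows (38.7%). It was in 5.01% of the 13560 windows of genes of the files and in 3.31% of all 35116 windows of this length. CCAAT was present in 53.2% of the members' windows, against 34.9% and 34.6%. Counted by gene, 24 of 48 members (50%) had an E2F word in a window, against 6.84% of the 9276 genes of the files with a window. CCAAT was present for 58.3% of these members and 43.7% of these genes. The share with an E2F word was 6 of 12 among members that rose in CDH2 knockdown and 18 of 36 among the others. A matching word describes the sequence and does not show that a factor binds there.

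In scramble CSCs, levels compared per kilobase of transcript differed widely between members. MCM7, a subunit of the helicase, was highest at 137 ± 15.5 CPM per kilobase (SD, n = 3), followed by PCNA at 111 ± 15.5. MCM3 and FEN1, the flap nuclease of Okazaki fragments, came next at 81.0 and 74.1 CPM per kilobase. The lowest were MCM9 at 2.54 and MCM10 at 3.31 CPM per kilobase, then POLA2, ORC4 (4.75) and ORC1 (4.78). Of the 53 pairs of neighbours in this order, 9 stood apart by more than the sum of their SDs, and the rest did not differ beyond their spread. Subunits that work in a single complex were not at 1 level, since MCM6, at 16.7 CPM per kilobase, was below MCM2 at 31.1 and MCM7 at 137. Each level depends on the annotated length of the canonical transcript, and 17 of the 54 members share exon bases with another protein-coding gene. For FEN1 (FADS2) and PRIM1 (NACA) a partner lies on the same strand, where counting by strand would not separate the reads. Whether the authors counted by strand is not given in the sources used here, so part of the signal of MCM7, which overlaps AP4M1, of MCM9 (ASF1A), GINS1 (NINL), RPA3 (UMAD1) and TYMS (ENOSF1) cannot be told apart from that of the partner.

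**Figure D1:**
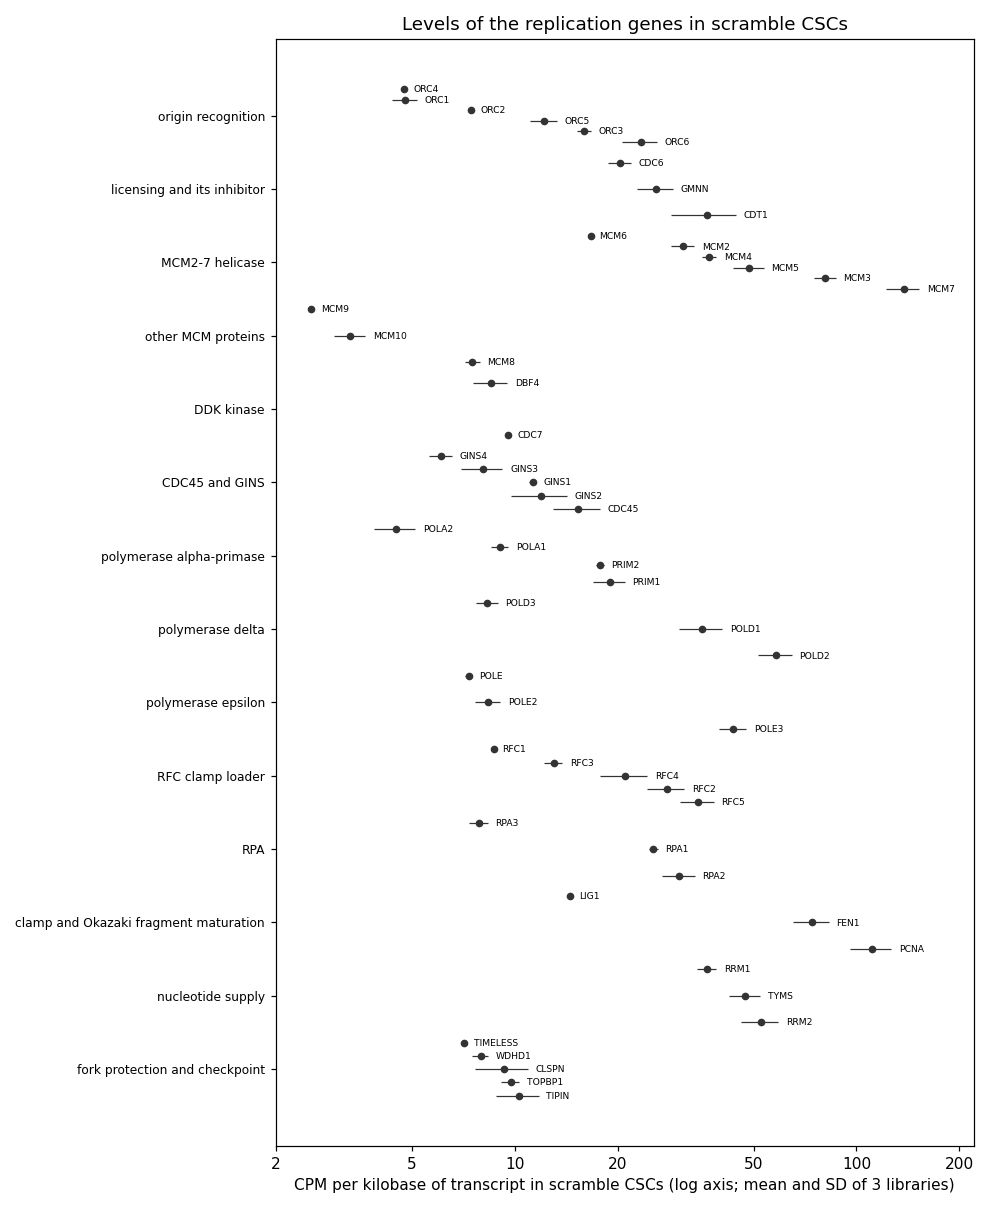
Level of each replication gene in scramble CSCs, as CPM per kilobase of canonical transcript on a log axis, grouped by complex. Points are means of 3 libraries and bars are SDs, and the levels run from 2.54 for MCM9 to 137 for MCM7.

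CDH2 knockdown was compared with scramble to find which parts of the machinery differed. The RNA of 13 of the 54 members rose, from ORC1 at the origin to TOPBP1 in the checkpoint, and none fell. POLA1 (0.78 on the log2 scale, 1.71-fold), RRM2 (0.70, 1.62-fold) and POLE (0.61, 1.53-fold) had the largest rises. The others were ORC1, MCM4, MCM9, CDC7, GINS1, PRIM2, RFC3, TIMELESS, WDHD1 and TOPBP1, at log2 fold changes between 0.32 and 0.52. A member was called where limma's p, adjusted over all 12939 genes, was under 0.05, and by this rule 7.29% of all genes were called higher and 6.98% lower, beside 24.1% and 0 of the members. The median log2 fold change was 0.19 over the members and 0.007 over all genes, and 50 of the 54 members against 51.0% of all genes lay above 0. The 3 CDH2 knockdown libraries lay above the 3 scramble libraries in 28 members, against 27.1% of all genes. An unadjusted p under 0.05 was reached by 23 members (42.6%) and by 37.5% of all genes. With the fold minimum of 1.66 that the study applied, POLA1 alone of the members was called, beside 0.866% of all genes called higher. Fold changes were taken on log2(CPM + 1), where the added 1 shrinks those of low genes, and in bulk RNA more cells in S phase and more RNA per cell cannot be told apart.

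These calls depended on the block and on single libraries. The fit held all 8 libraries with the replicate number as a block, because the authors had removed a batch effect that follows this number. Without the block 26 members were called (25 higher and RPA3 lower), beside 43.3% of all genes. No member was called in a fit of CDH2 knockdown and scramble alone, nor without CDH2 knockdown replicate 1 or 2, Cx43 knockdown replicate 1 or 2, or scramble replicate 1, fits in which at most 10 of the 12939 genes were called in all. Without Cx43 knockdown replicate 1 or 2, the members' median with CDH2 shRNA stayed at 0.19, with 50 above 0, as with all 8 libraries. What changed was the estimate of the spread, on 2 residual degrees of freedom where the fit of all 8 had 3. Without scramble replicate 2, 14 members were called, beside 12.1% of all genes. Without replicate 3 of CDH2 knockdown or of scramble, 16 members (29.6%) were called, 14 higher and 2 lower, beside 41.0% of all genes, so the share of members was below that of all genes, where with all 8 libraries it was above (24.1% beside 14.3%). In these fits 31 members lay above 0 and 23 below, and the median over the members was 0.12.

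**Figure D2:**
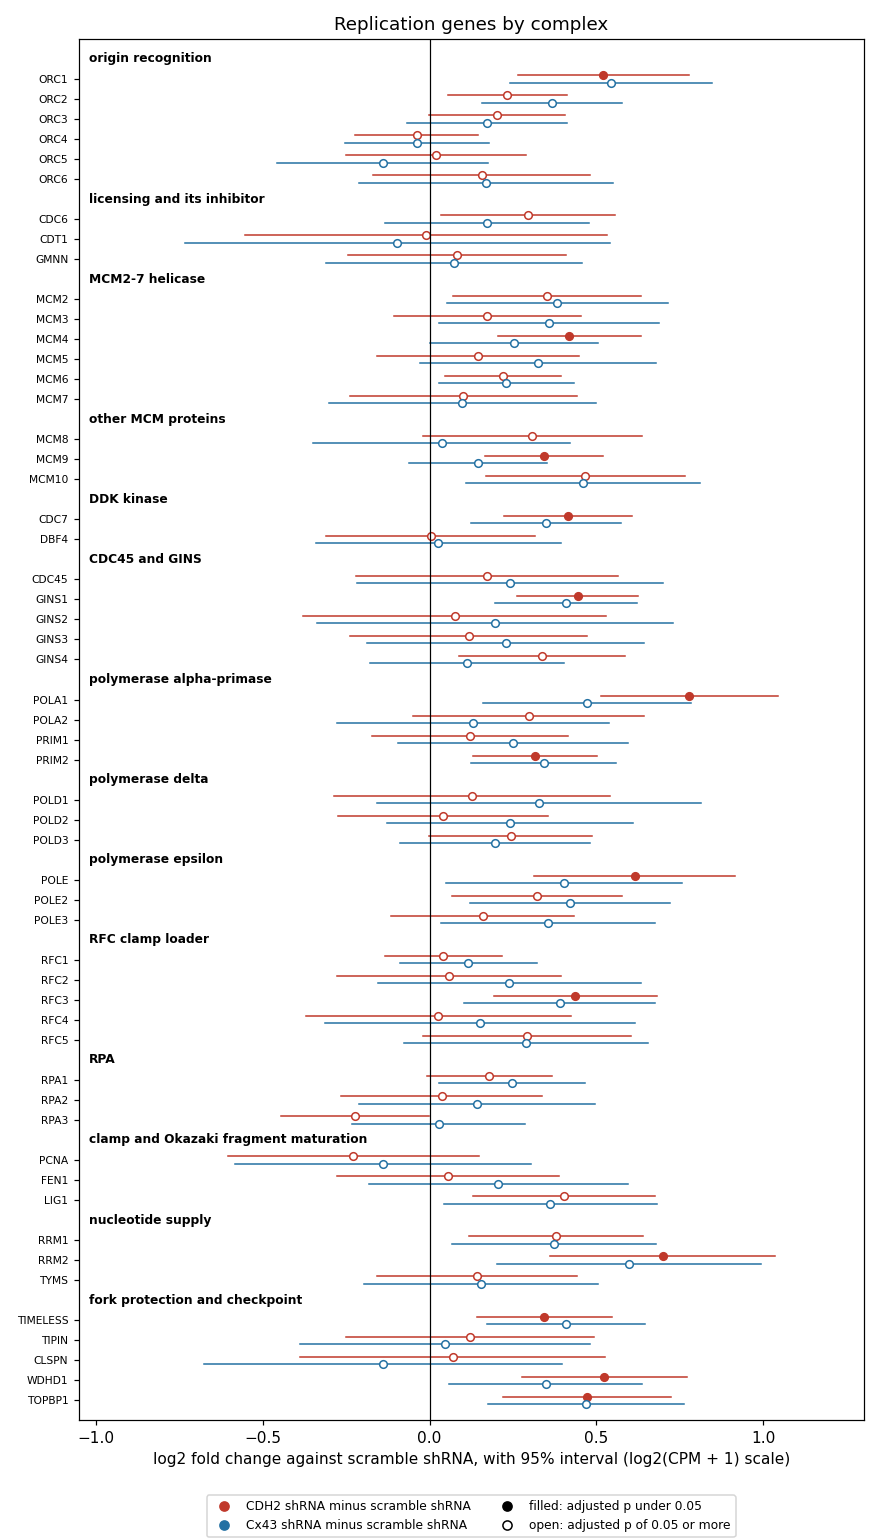
Log2 fold change of each replication gene against scramble shRNA, with 95% intervals, for CDH2 shRNA (red) and Cx43 shRNA (blue), grouped by complex. Filled points passed the limma test, which 13 members reached with CDH2 shRNA and none with Cx43 shRNA; most points of both comparisons lie to the right of 0.

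Within the origin recognition complex, ORC1 rose, the subunit whose abundance is known to follow the cell cycle. ORC1 (chr1:52372829-52404423, minus strand) measured 3.99, 4.10 and 3.87 log2(CPM + 1) in scramble replicates 1 to 3, 4.51, 4.39 and 4.63 with CDH2 shRNA, and 4.53 and 4.54 with Cx43 shRNA. Both knockdowns lay wholly above scramble. The log2 fold change with CDH2 shRNA was 0.52 ± 0.10 (SE; limma adjusted p = 0.0349), and with Cx43 shRNA it was 0.54 ± 0.12, which did not pass (adjusted p = 0.0969). Over the other 5 ORC subunits, log2 fold changes with CDH2 shRNA ran from -0.04 for ORC4 to 0.23 for ORC2. The loading factor CDC6 measured 6.54, 6.66 and 6.44 in scramble and 6.77, 6.81 and 6.95 in CDH2 knockdown, with no overlap, and missed the threshold (0.29 ± 0.11, adjusted p = 0.104). CDT1, its partner, and GMNN, the inhibitor of CDT1, had log2 fold changes of -0.01 and 0.08.

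Of the 6 subunits of the MCM2-7 helicase, MCM4 rose with CDH2 shRNA, and the other 5 had positive log2 fold changes that did not pass. MCM4 measured 7.24, 7.32 and 7.18 in scramble, 7.61, 7.64 and 7.73 with CDH2 shRNA, and 7.55 and 7.44 with Cx43 shRNA. The scramble range was below every knockdown library, and the difference with CDH2 shRNA was 0.42 ± 0.09 (adjusted p = 0.0370). MCM2 measured 6.74, 6.86 and 6.64 in scramble, 6.996, 7.10 and 7.21 with CDH2 shRNA, and 7.24 and 7.02 with Cx43 shRNA. MCM6 measured 5.99, 5.999 and 5.99 in scramble, 6.20, 6.22 and 6.22 with CDH2 shRNA, and 6.24 and 6.21 with Cx43 shRNA. MCM2 and MCM6 showed no overlap with scramble, with log2 fold changes of 0.35 ± 0.11 and 0.22 ± 0.07 for CDH2 shRNA (adjusted p = 0.0856 and 0.0832).

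The CDH2 knockdown and scramble libraries overlapped for the remaining helicase subunits. MCM3 measured 7.95, 8.07 and 7.86 in scramble, 8.03, 8.14 and 8.24 with CDH2 shRNA, and 8.43 and 8.20 with Cx43 shRNA. MCM5 measured 7.39, 7.54 and 7.25 in scramble, 7.47, 7.47 and 7.69 with CDH2 shRNA, and 7.80 and 7.64 with Cx43 shRNA. For MCM3 and MCM5, the Cx43 knockdown libraries lay above all scramble libraries, although neither passed (adjusted p = 0.204 and 0.260). MCM7 measured 8.40, 8.57 and 8.25 in scramble, 8.39, 8.47 and 8.66 with CDH2 shRNA, and 8.63 and 8.37 with Cx43 shRNA, so its groups overlapped in both comparisons. Without replicate 3 of CDH2 knockdown or scramble, the log2 fold changes of MCM5 and MCM7 with CDH2 shRNA were below 0.

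Among MCM proteins outside the ring, MCM9, which acts in repair with MCM8, rose with CDH2 shRNA. MCM9 (chr6:118813442-118935162, minus strand) measured 3.83, 3.81 and 3.85 in scramble, 4.19, 4.18 and 4.16 with CDH2 shRNA, and 3.96 and 3.99 with Cx43 shRNA. The 3 groups were stacked without overlap, and the difference with CDH2 shRNA was 0.34 ± 0.07 (adjusted p = 0.0371). MCM10, which helps to activate the helicase, measured 3.996, 4.14 and 3.86 in scramble, 4.38, 4.41 and 4.61 with CDH2 shRNA, and 4.55 and 4.37 with Cx43 shRNA. It had the largest log2 fold change of the MCM proteins, 0.47 ± 0.12, but did not pass (adjusted p = 0.0561).

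The origin firing kinase and the GINS complex each had a member that rose. CDC7, the catalytic subunit (chr1:91500851-91525764, plus strand), measured 4.98, 5.01 and 4.97 in scramble, 5.35, 5.43 and 5.42 with CDH2 shRNA, and 5.39 and 5.28 with Cx43 shRNA. Its rise with CDH2 shRNA was 0.42 ± 0.08 (adjusted p = 0.0318), whereas its activator DBF4 differed by 0.004 on the log2 scale. GINS1 (chr20:25391008-25452700, plus strand) measured 5.26, 5.30 and 5.23 in scramble, 5.71, 5.67 and 5.74 with CDH2 shRNA, and 5.67 in both Cx43 knockdown libraries. GINS1 rose by 0.44 ± 0.07 (adjusted p = 0.0254) with CDH2 shRNA, and both knockdowns lay clear of scramble. The other 3 GINS subunits and CDC45 had log2 fold changes from 0.08 for GINS2 to 0.34 for GINS4, none of which passed.

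Of the 10 polymerase and primase genes among the members, POLA1, PRIM2 and POLE rose with CDH2 shRNA. In polymerase alpha-primase, which lays the first primers, POLA1 and PRIM2 rose and POLA2 and PRIM1 did not pass. POLA1, the catalytic subunit (chrX:24693873-24996986, plus strand), measured 5.65, 5.75 and 5.58 in scramble, 6.33, 6.47 and 6.52 with CDH2 shRNA, and 6.25 and 6.01 with Cx43 shRNA. CDH2 knockdown was above Cx43 knockdown and Cx43 knockdown above scramble in every library, and the log2 fold change with CDH2 shRNA was 0.78 ± 0.11 (adjusted p = 0.0209). PRIM2, the large primase subunit (chr6:57314805-57646850, plus strand), measured 5.39, 5.43 and 5.36 in scramble, 5.68, 5.70 and 5.74 with CDH2 shRNA, and 5.76 and 5.70 with Cx43 shRNA. It rose by 0.32 ± 0.08 (adjusted p = 0.0467) with CDH2 shRNA, and PRIM2 has pseudogene copies whose reads may be counted with it. Its call was lost in each of the 8 fits that left out a library.

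POLE, the catalytic subunit of the leading-strand polymerase (chr12:132623753-132687376, minus strand), measured 5.85, 5.90 and 5.84 in scramble, 6.34, 6.60 and 6.51 with CDH2 shRNA, and 6.43 and 6.11 with Cx43 shRNA. It rose by 0.61 ± 0.12 (adjusted p = 0.0348), with every knockdown library above scramble. Its partner POLE2 measured 3.92, 4.03 and 3.80 in scramble, 4.24, 4.13 and 4.36 with CDH2 shRNA, and 4.34 in both Cx43 knockdown libraries, a difference of 0.32 ± 0.10 for CDH2 shRNA that did not pass (adjusted p = 0.0841). None of the 3 polymerase delta genes among the members passed. POLD4, a delta subunit outside the 54, fell with CDH2 shRNA (-0.88 ± 0.10, limma adjusted p = 0.0189). POLE4, an epsilon subunit outside the 54, had -0.44 ± 0.15 with CDH2 shRNA and did not pass (limma adjusted p = 0.0892). POLD3 measured 5.02, 5.12 and 4.92 in scramble, 5.20, 5.22 and 5.36 with CDH2 shRNA, and 5.28 and 5.15 with Cx43 shRNA, with no overlap. POLD1, the catalytic subunit, measured 6.92, 7.14 and 6.73 in scramble, 6.90, 7.01 and 7.26 with CDH2 shRNA, and 7.42 and 7.09 with Cx43 shRNA, and its groups overlapped.

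Among the clamp, its loader and the enzymes of Okazaki fragment maturation, RFC3 alone rose. RFC3, a subunit of the loader (chr13:33818069-33966558, plus strand), measured 4.95, 5.04 and 4.87 in scramble, 5.31, 5.39 and 5.47 with CDH2 shRNA, and 5.43 and 5.25 with Cx43 shRNA. RFC3 rose by 0.44 ± 0.10 (adjusted p = 0.0426) with CDH2 shRNA, while the other 4 subunits ran from 0.03 for RFC4 to 0.29 for RFC5 without passing. PCNA, the clamp itself, measured 7.14, 7.35 and 6.95 in scramble, 6.82, 6.83 and 7.12 with CDH2 shRNA, and 7.12 and 6.90 with Cx43 shRNA. The PCNA values overlapped between groups, and its log2 fold changes, -0.23 ± 0.15 and -0.14 ± 0.18, did not pass (adjusted p = 0.318 and 0.689). LIG1, which seals Okazaki fragments, measured 5.52, 5.55 and 5.53 in scramble, 5.81, 6.05 and 5.95 with CDH2 shRNA, and 6.03 and 5.76 with Cx43 shRNA. It stood clear of scramble in each library and missed the threshold (0.40 ± 0.11, adjusted p = 0.0626).

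None of the 3 genes of RPA, the protein that binds single-stranded DNA, passed the test. RPA1 measured 6.96, 7.003 and 6.92 in scramble, 7.11, 7.12 and 7.18 with CDH2 shRNA, and 7.24 and 7.18 with Cx43 shRNA (0.18 ± 0.08 for CDH2 shRNA, adjusted p = 0.145). RPA3, the smallest subunit, measured 4.07, 4.16 and 3.99 in scramble, 3.82, 3.79 and 3.94 with CDH2 shRNA, and 4.13 and 4.07 with Cx43 shRNA (-0.22 ± 0.09, adjusted p = 0.132). RPA3 was the single member whose CDH2 knockdown libraries all lay below scramble.

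In nucleotide supply, RRM2 rose, the small subunit of ribonucleotide reductase, which makes deoxynucleotides. RRM2 (chr2:10120698-10211725, plus strand) measured 7.42, 7.60 and 7.24 in scramble, 8.07, 7.99 and 8.30 with CDH2 shRNA, and 8.07 and 7.96 with Cx43 shRNA. Every knockdown library was above every scramble library, with a log2 fold change of 0.70 ± 0.14 (adjusted p = 0.0339) for CDH2 shRNA. RRM2 has pseudogene copies in the genome, and the large subunit RRM1 differed by 0.38 without passing (adjusted p = 0.0634).

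At the fork and in its checkpoint, TIMELESS, WDHD1 and TOPBP1 rose and TIPIN and CLSPN did not pass. TIMELESS, of the fork protection complex (chr12:56416363-56449426, minus strand), measured 5.23, 5.22 and 5.26 in scramble, 5.53, 5.66 and 5.56 with CDH2 shRNA, and 5.70 and 5.59 with Cx43 shRNA. WDHD1, which ties polymerase alpha to the helicase (chr14:54938949-55027105, minus strand), measured 5.60, 5.54 and 5.69 in scramble, 6.08, 6.27 and 6.05 with CDH2 shRNA, and 6.02 and 5.90 with Cx43 shRNA. TOPBP1, which activates the ATR kinase (chr3:133598175-133662380, minus strand), measured 5.83, 5.75 and 5.92 in scramble, 6.26, 6.44 and 6.21 with CDH2 shRNA, and 6.35 and 6.25 with Cx43 shRNA. The knockdown libraries of all 3 genes lay above scramble. The log2 fold changes with CDH2 shRNA were 0.34 ± 0.08 for TIMELESS (adjusted p = 0.0465), 0.52 ± 0.10 for WDHD1 (adjusted p = 0.0332) and 0.47 ± 0.10 for TOPBP1 (adjusted p = 0.0392). TIPIN, the partner of TIMELESS, and CLSPN, the mediator between ATR and CHK1, had values of 0.12 and 0.07.

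**Figure D3:**
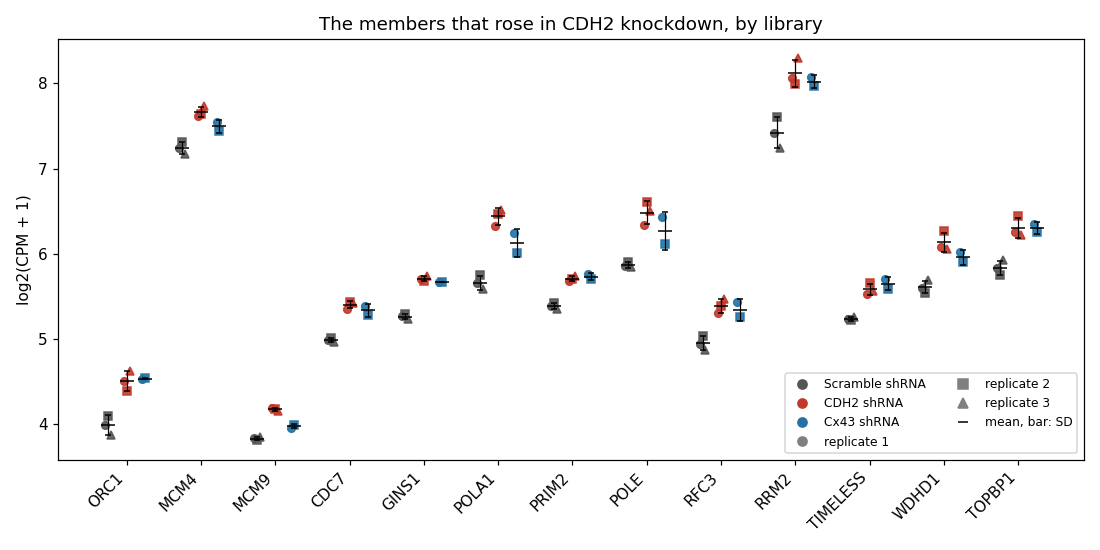
Log2(CPM + 1) of the 13 members that rose in CDH2 knockdown, in each of the 8 libraries, with marker shapes for replicate numbers, horizontal ticks for means and bars for SDs. The 3 CDH2 knockdown libraries lie above the 3 scramble libraries in each of the 13 genes, and so do both Cx43 knockdown libraries. The genes were picked for their rise in CDH2 knockdown over these same scramble libraries, so the separation is not a separate result. Over all genes, every knockdown library lay above every scramble library in 17.6%.

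Cx43 knockdown was compared with scramble in the same fit, and the comparison shares its scramble libraries with that of CDH2 knockdown. No member passed an adjusted p of 0.05, a rule by which 0.417% of all genes were called higher. By unadjusted p, 22 of 54 members (40.7%) were under 0.05, against 21.6% of all genes. The median log2 fold change was 0.24 over the members and 0.04 over all genes, with 49 members above 0 against 57.6% of all genes. Both Cx43 knockdown libraries lay above the 3 scramble libraries in 32 members, beside 31.4% of all genes. The largest log2 fold changes were those of RRM2 (0.60 ± 0.16, adjusted p = 0.123), ORC1 (0.54), POLA1 (0.47 ± 0.13), TOPBP1 (0.47 ± 0.12) and MCM10 (0.46 ± 0.14). Those of GINS1 (adjusted p = 0.0869) and ORC1 (adjusted p = 0.0969) came closest to the threshold. Without the block 22 members were called, all higher, beside 24.3% of all genes, and 14 in a fit of Cx43 knockdown and scramble alone, beside 21.7%. Leaving out CDH2 knockdown replicate 3 or scramble replicate 3 gave 10 calls among the members (18.5%, beside 16.5% of all genes), leaving out scramble replicate 2 gave 2 (3.70% beside 3.62%), and leaving out any other library gave 0.

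The difference between the knockdowns was tested directly. None of the 54 members had an adjusted p under 0.05 for CDH2 against Cx43 knockdown, where 0.0% of all genes were called, and none had an unadjusted p under 0.05, which 2591 of the 12939 genes had. Without the block 2 members were called (MCM9 higher by 0.20 and RPA3 lower by 0.25), or 3.70% beside 21.5% of all genes. The median difference over members was -0.006, with 26 members higher in CDH2 knockdown and 28 lower. POLA1 had the largest difference, 0.31 higher in CDH2 knockdown with a 95% interval from -0.004 to 0.62. For RRM2 the interval was -0.29 to 0.50, and for PCNA -0.53 to 0.35, so true differences anywhere within these bounds are compatible with the 8 libraries.

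A count over all knockdown libraries does not need the limma fit, although it rests on values from which the authors had removed a batch effect. All 5 knockdown libraries lay above all 3 scramble libraries in 25 of 54 members (46.3%), against 2275 of all genes (17.6%). The 25 were the 13 members that rose with CDH2 shRNA, with ORC2, ORC3, MCM2, MCM6, MCM10, POLD3, POLE2, RFC1, RFC5, RPA1, LIG1 and RRM1. No GINS gene but GINS1 was among them, and neither were PCNA, FEN1 and TYMS. The members together took 0.489% to 0.566% of the summed CPM in scramble libraries, 0.592% to 0.665% in CDH2 knockdown and 0.576% to 0.630% in Cx43 knockdown, ranges that did not overlap with scramble.

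Libraries of a group differed among themselves in a shared way over the members. Scramble replicate 2 was the highest of the 3 scramble libraries in 48 of 54 members and replicate 3 the lowest in 47. CDH2 knockdown replicate 3 was the highest of its group in 42 members, and Cx43 knockdown replicate 1 was the higher of its pair in 47. Set against the scramble library of the same number, the members' median difference in CDH2 knockdown replicate 1 was 0.16 (42 of 54 higher). It was 0.07 in replicate 2 (29 higher) and 0.44 in replicate 3 (53 higher). Of all genes, 50.3%, 50.1% and 52.3% were higher in these pairs. In Cx43 knockdown the members' median difference was 0.28 in replicate 1 (51 higher) and 0.06 in replicate 2 (32 higher). There, 59.1% and 53.0% of all genes were higher. The members' median difference was thus smallest in number 2 for both knockdowns. Both of these differences were taken against scramble replicate 2, so they are not independent. Number 3 holds no Cx43 knockdown library. After the batch correction, its scramble and CDH2 knockdown values deviate from their group means by equal and opposite amounts. Leaving out either therefore gives the same result.

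**Figure D4:**
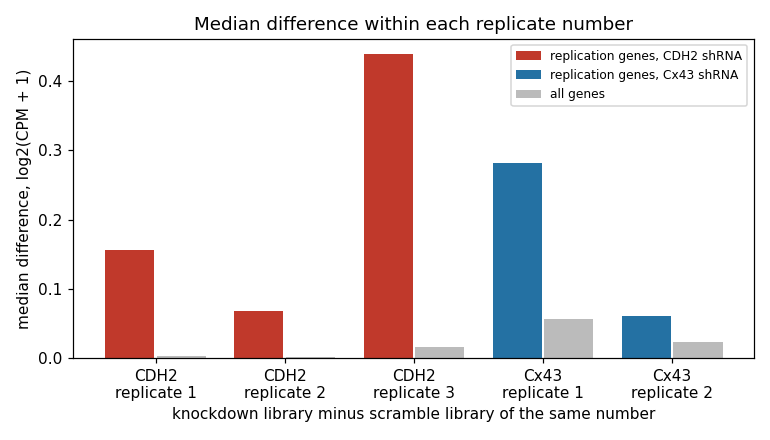
Median difference in log2(CPM + 1) between each knockdown library and the scramble library of the same replicate number, for the 54 replication genes (coloured) and for all genes (grey). The members' median is positive in all 5, from 0.06 in Cx43 knockdown replicate 2 to 0.44 in CDH2 knockdown replicate 3.

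Members with long transcripts had higher fold changes in CDH2 knockdown, and so did genes at large. Across the 54 members, which are not independent and share their libraries, Pearson's r between log2 fold change and log2 transcript length was 0.48 for CDH2 shRNA and 0.17 for Cx43 shRNA, and over 11888 genes with an annotation it was 0.45 and 0.10. The 30 members with transcripts over 3000 bases had a median of 0.34 with CDH2 shRNA and held 11 of the 13 calls, where genes of this length had a median of 0.14 with 11.3% called higher. The 24 shorter members had a median of 0.11 and 2 calls, PRIM2 and RFC3, where genes of this length had a median of -0.14 with 2.52% called higher. After a trend on transcript length and GC content was removed from each library, 10 members were called higher beside 13.6% of all genes called in either direction, and 8 of the 13 stayed among them. MCM4, MCM9, CDC7, RFC3 and RRM2 no longer passed (adjusted p from 0.0502 to 0.0909). The log2 fold change of MCM9 went from 0.34 to 0.20, whereas those of the other 4 were 0.62 for RRM2, 0.39 for RFC3, 0.34 for MCM4 and 0.32 for CDC7. MCM2 and LIG1 now passed (adjusted p = 0.0460 and 0.0342), and the members' median was 0.19. With Cx43 shRNA 1 member passed after this correction, TIMELESS (0.41, adjusted p = 0.0449), beside 3.85% of all genes. The part of transcript length in the calls was not tested beyond this.

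**Figure D5:**
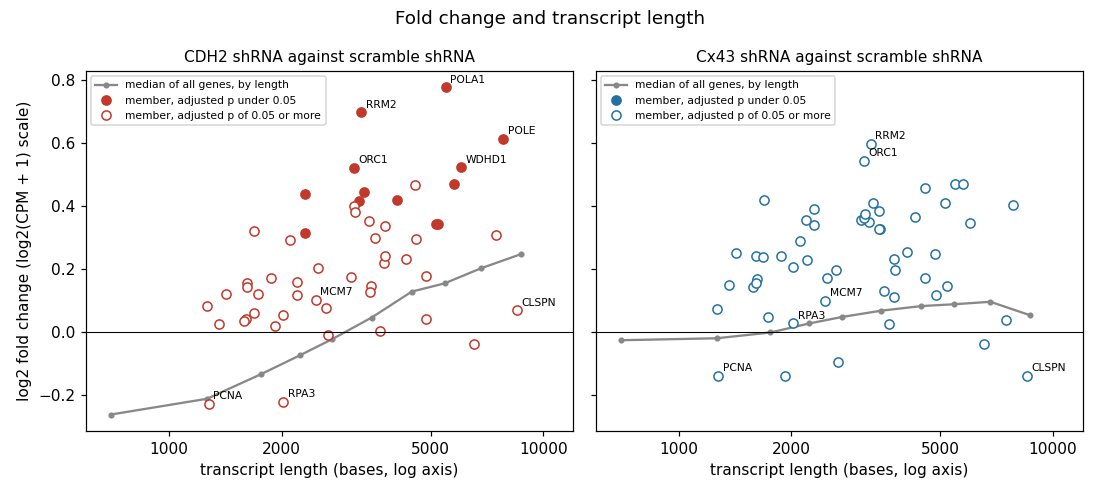
Log2 fold change against transcript length (log axis) for each replication gene, with CDH2 shRNA on the left and Cx43 shRNA on the right; filled points have an adjusted p under 0.05. The grey line is the median of all genes by length, which rises with length for CDH2 shRNA, and PCNA, with a transcript of 1276 bases, lies close to it at -0.23.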

How the data were processed

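RNA from 8 libraries of sorted MDA-MB-231 CSCs was analysed as deposited. The authors aligned reads to hg38 in Partek Flow (STAR 2.6.1 per the submitters' processing notes), left out a sample of low quality, took the log of CPM + 1, removed a batch effect among sequencing replicates and filtered low genes. The deposited values are log2(CPM + 1): turned back, a library sums to between 684411 and 727083 CPM. A line without a gene name was left out.

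The values were fitted with limma 3.58.1 in R 4.3.3 (lmFit, eBayes) over all 12939 genes in 1 model of the 8 libraries, with group and replicate number as terms. P-values were two-sided and adjusted by Benjamini-Hochberg over all genes. The block leaves 3 residual degrees of freedom (2.84 were added by limma). Residuals vary in only 2 directions, so the standard errors and p-values may be too small. The pairing comes from the labels' replicate numbers: deviations from group means within a number sum to at most 1e-04 in every gene, so correlations between same-numbered libraries are set by the correction and were not used as a check.

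Members and lists were chosen with earlier results of these data known. Named are members called in either knockdown, MCM2 to MCM7, PCNA, the member of each complex with the largest absolute log2 fold change in either knockdown, and at most 4 called genes of each other list. ORC2, CDT1, GMNN and further members are given by range or as partners. Transcript lengths are of Ensembl canonical transcripts in GENCODE v44, matched by symbol for 11888 genes (91.9%). Promoters are RefSeq's. Alternatives were no block, quantile normalization, median centring, the upper 75% of genes, a pseudocount of 0.1, a mean-variance trend, only the groups compared, the study's fold minimum (1.66 or 1.5), a length and GC correction, and leaving out each library.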

Additional observations from a re-analysis of the deposited data

How the results depend on the processing

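The members' median was above 0 for both knockdowns under each alternative, and that of the direct comparison lay near 0 with either sign. Quantile normalization, median centring, keeping the upper 75% of genes by mean, a pseudocount of 0.1 and a mean-variance trend were applied in turn. They gave 11 to 13 called members for CDH2 shRNA, beside 12.8% to 15.2% of the genes tested. For Cx43 shRNA they gave 0, beside 0.0412% to 1.36%. With the upper 75% of genes, the other replication genes had 0 calls for Cx43 shRNA. Without the replicate block, calls were 26 (CDH2), 22 (Cx43) and 2 (direct) for members, 18, 16 and 8 for other replication genes, and 9, 6 and 2 for mitotic genes, beside 43.3%, 24.3% and 21.5% of all genes. In fits of only the groups compared, CDH2 shRNA had 0 calls in each list and over all genes, and Cx43 shRNA 14, 15 and 6, beside 21.7% of all genes. The fold minimum left 1, 2 and 0 for CDH2 shRNA, beside 2.06% of all genes. The length and GC correction gave 3 mitotic calls for CDH2 shRNA, beside 13.6% of all genes. For Cx43 shRNA this correction gave 1 member and 4 other replication genes, beside 3.85% of all genes. With 1 library left out, calls ranged from 0 to 16 (CDH2) and 0 to 10 (Cx43) for members, 0 to 18 (CDH2), 0 to 12 (Cx43) and 0 to 5 (direct) for other replication genes, and 0 to 8 (CDH2), 0 to 4 (Cx43) and 0 to 1 (direct) for mitotic genes, while the share of all genes called ran from 0.0% to 41.0% (CDH2), 0.0% to 16.5% (Cx43) and 0.0% to 16.5% (direct). The members' median lay from 0.12 to 0.29 (CDH2), 0.17 to 0.38 (Cx43) and -0.0963 to 0.0448 (direct). Named genes that changed sign, with the range over fits without 1 library, were MCM5 (-0.001 to 0.266), MCM7 (-0.0563 to 0.234) and POLD1 (-0.0715 to 0.296) with CDH2 shRNA, below 0 without replicate 3 of CDH2 knockdown or scramble, and MCM7 (-0.0918 to 0.289), RPA3 (-0.0157 to 0.114, and -0.0157 with only the groups compared), PCNA (-0.306 to 0.063) and MKI67 (-0.335 to 0.180) with Cx43 shRNA. The causes were not tested. Depth is unknown, so limits that depend on it cannot be given.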

Other observations

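Outside these 54, 39 other genes of DNA replication and 16 mitotic genes were counted in the same fit. With CDH2 shRNA, 11 of the 39 rose and 1 fell, beside 7.29% and 6.98% of all genes, and their median log2 fold change was 0.21, beside 0.007 over all genes. ATAD5, which unloads PCNA, measured 4.63, 4.64 and 4.64 in scramble, 5.35, 5.47 and 5.40 with CDH2 shRNA, and 5.10 and 4.99 with Cx43 shRNA (0.77 ± 0.08 for CDH2 shRNA, adjusted p = 0.0167). TICRR, the treslin protein of origin firing, rose by 0.72 ± 0.09 (adjusted p = 0.0202). POLD4, the smallest subunit of polymerase delta, measured 4.60, 4.69 and 4.505 in scramble, 3.75, 3.597 and 3.82 with CDH2 shRNA, and 4.04 and 4.10 with Cx43 shRNA. It fell by 0.88 ± 0.10 on the log2 scale with CDH2 shRNA (adjusted p = 0.0189), the 1 gene of the 39 that did. With Cx43 shRNA, DNA2, a nuclease and helicase, was the 1 gene of the 39 that passed. DNA2 measured 4.11, 4.08 and 4.14 in scramble, 4.83, 4.85 and 4.79 with CDH2 shRNA, and 4.83 in both Cx43 knockdown libraries, a rise of 0.72 in either knockdown (adjusted p = 0.0167 and 0.0364).

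Of the 16 mitotic genes, 5 rose with CDH2 shRNA and none with Cx43 shRNA, beside 7.29% and 0.417% of all genes, and their median log2 fold changes were 0.33 and 0.27, beside 0.007 and 0.04 over all genes. BUB1B, of the spindle checkpoint, rose by 0.55 ± 0.08 (adjusted p = 0.0224) and KIF11, a spindle motor, by 0.46 ± 0.07 (adjusted p = 0.0225) with CDH2 shRNA, and BUB1 by 0.48 ± 0.08 (adjusted p = 0.0253). MKI67, the Ki-67 proliferation antigen, measured 8.29, 8.41 and 8.19 in scramble, 8.77, 8.99 and 9.03 with CDH2 shRNA, and 8.39 and 8.05 with Cx43 shRNA. It rose by 0.63 ± 0.14 (adjusted p = 0.0394) with CDH2 shRNA, its value with Cx43 shRNA was -0.08 ± 0.16, and the direct difference of 0.71 did not pass (adjusted p = 0.138).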
